A study of Mus musculus with 6 samples.

Results

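The genes followed here belong to the poly-ADP-ribose polymerase (PARP) family, 10 of the 19057 genes that the array annotation names, in splenic B cells of lupus-prone and control mice. They are Parp1, Parp2 and Parp3, which act at DNA breaks, Parp9, Parp10, Parp12 and Parp14, which are linked to interferon responses, and Parp4, Parp6 and Parp8. The family was chosen by the strain difference of Parp3 in these same arrays, so the differences between strains of all its members are given below as a description, without a test. Membership went by gene symbol, and every probe annotated to a listed symbol was read, 21 probes in all.

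The Sle2 group was 3 mice of the congenic strain B6.Sle2, in which a lupus susceptibility segment of NZM2410 chromosome 4 sits on a C57Bl/6 background. The B6 group was 3 wild-type C57Bl/6 mice. The labels name no treatment, age or sex for either group. The B cells were used fresh, and each mouse gave 1 Illumina BeadChip array.

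PARP enzymes take ADP-ribose from NAD+ and attach it to proteins, either as long branched chains or as single units. The chain-forming enzymes Parp1 and Parp2 bind broken DNA and recruit repair factors, while Parp3 attaches mainly single units and is tied to the end joining of double-strand breaks. Several other members are induced by interferon and carry domains that read ADP-ribose. In B cells, DNA breaks arise during antigen receptor rearrangement and class switching.

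Between 17417 and 17923 probes were detected per array (detection p-value under 0.05), and median intensities before normalization lay between 50.4 and 56.7. Values are normalized log2 intensities, and a gene is described by its brightest kept probe, a kept probe being one detected on at least 3 of the 6 arrays. B cell markers reached the filter for 6 of 8 listed genes, at mean levels of 10.16 to 10.20 in Sle2 and 10.10 to 10.20 in B6. The T cell list also registered, with 5 of 8 tested, at 6.47 to 6.75 in Sle2 and 6.00 to 6.47 in B6; Cd4 and Cd8a did not pass the filter. Erythroid markers (4 of 6 tested) were at 9.15 to 9.52 against 8.48 to 9.39, and neutrophil markers (6 of 7 tested) at 7.23 to 7.30 against 6.19 to 7.74. Monocyte and macrophage markers (6 of 7 tested) were at 8.51 to 9.05 against 8.52 to 8.95. Natural killer markers (4 of 6 tested) were at 7.65 to 8.27 against 7.18 to 7.99. Plasmacytoid dendritic markers (5 of 6 tested) were at 9.93 to 10.20 against 9.91 to 10.08, and plasma cell markers (4 of 6 tested) at 8.75 to 9.12 against 8.51 to 8.86. Genes within these lists differed widely. Ly6d averaged 13.40 in Sle2 and 13.71 in B6 but Siglech 7.82 and 7.33. Mzb1 averaged 13.10 and 12.91 but Sdc1 5.25 and 5.08. Ccr9, Jchain and Prdm1 did not pass the filter. The list means are therefore no measure of how many such cells were present. No gene of these marker lists was called by limma. An unadjusted p under 0.05 was reached by 16.9% of all tested genes. It was reached by 3 of 5 T cell genes, all higher in Sle2, and by 3 of 5 plasmacytoid dendritic genes, 1 higher and 2 lower. Among erythroid genes 2 of 4 reached it, both higher, and among B cell genes 0 of 6. The monocyte and macrophage list (lower) and the neutrophil, natural killer and plasma cell lists (higher) had 1 each. The part of these cell types in the results below was not tested. Fewer cells of a type and less RNA per cell cannot be told apart in such samples. Transcripts of the inactive X chromosome and of the Y chromosome differed between mice of the same strain. The Xist probe with the strongest signal read 10.93 in Sle2 mouse 3 and 10.13 in B6 mouse 2, against 4.30 to 5.89 in the other arrays. B6 mouse 3, at 5.89, was detected for Xist while the Y-linked Eif2s3y read 8.67 there; the Parp3 difference given below, -1.35, was -1.29 without that mouse.

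The promoter of Parp3 is shown first, since Parp3 carries the strain difference of the family and shares this stretch of DNA with its neighbour Rrp9, which encodes a protein of ribosomal RNA processing. Windows run from 250 bases before to 50 bases after the annotated start in RefSeq, build GRCm38.p6, and the start sites of these divergent genes lie 360 bases apart. The capitals mark the 141 bases that both windows hold, read on opposite strands. The Parp3 window is chr9:106476900-106477199 on the minus strand, and the Rrp9 window is chr9:106477059-106477358 on the plus strand.
Parp3: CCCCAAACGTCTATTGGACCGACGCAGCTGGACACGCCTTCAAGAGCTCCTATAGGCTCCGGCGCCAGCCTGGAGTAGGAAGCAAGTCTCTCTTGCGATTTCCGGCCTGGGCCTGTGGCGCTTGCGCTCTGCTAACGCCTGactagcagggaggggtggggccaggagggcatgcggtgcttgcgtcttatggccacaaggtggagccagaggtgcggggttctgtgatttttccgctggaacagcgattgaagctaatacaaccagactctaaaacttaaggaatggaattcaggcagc
Rrp9: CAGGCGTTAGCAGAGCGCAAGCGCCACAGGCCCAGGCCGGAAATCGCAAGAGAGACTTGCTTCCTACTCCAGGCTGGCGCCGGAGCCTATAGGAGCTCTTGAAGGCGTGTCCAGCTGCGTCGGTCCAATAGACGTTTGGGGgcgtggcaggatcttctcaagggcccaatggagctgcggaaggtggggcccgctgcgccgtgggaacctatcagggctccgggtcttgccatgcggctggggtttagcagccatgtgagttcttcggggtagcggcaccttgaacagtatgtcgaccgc

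Parp3 was lower in every Sle2 mouse than in any B6 mouse. Its single probe read 6.70, 6.93 and 6.94 in Sle2 mice 1, 2 and 3 and 8.06, 8.23 and 8.33 in B6 mice 1, 2 and 3. The groups were separated by a gap of 1.12, larger than the spread within either one. Sle2 averaged 6.86 ± 0.13 (SD, n = 3) and B6 averaged 8.21 ± 0.14 (SD, n = 3), a difference of -1.35 on the log2 scale (SE 0.115), or 2.55-fold. The same separation was present in the deposited intensities, at 147, 154 and 162 in Sle2 and 277, 300.4 and 349 in B6. Among all 9297 tested genes, 7 had a more negative difference. Parp3 was detected on all 6 arrays, but no further probe for it was available to compare. Without background correction the difference was -1.07, and in the authors' normalized values it was -1.10. Leaving out single mice gave values from -1.42 to -1.27.

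**Figure D1:**
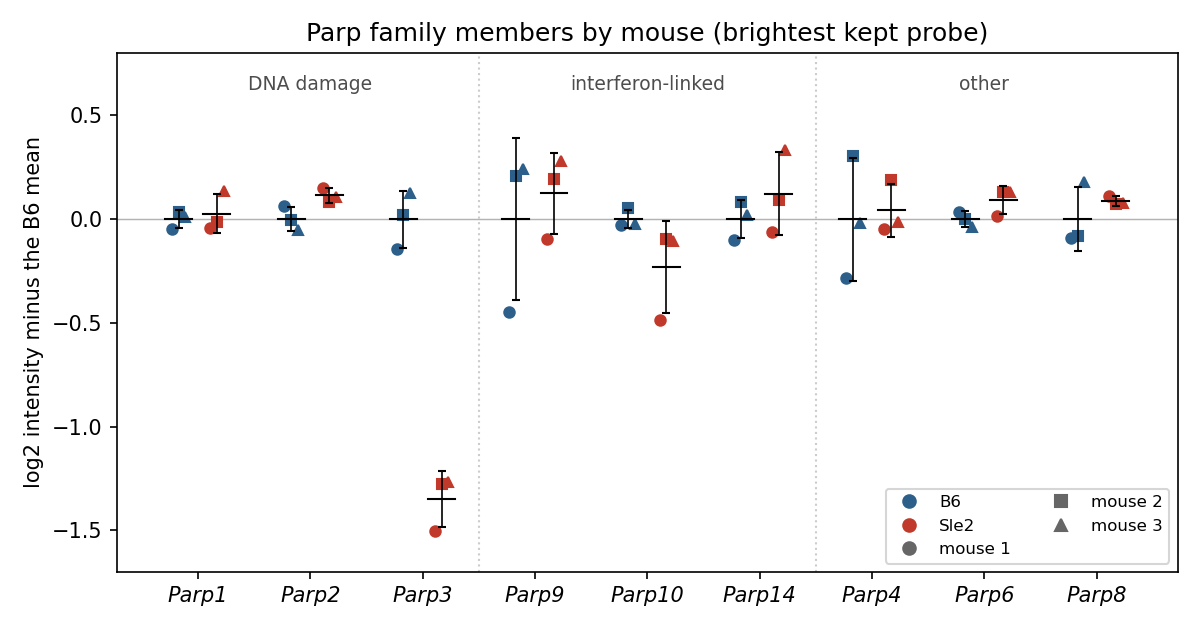
Normalized log2 intensity of the 9 tested PARP genes in each mouse, given relative to the B6 mean of the same gene (vertical axis, log2), with the horizontal bar at the group mean and the error bar 1 SD of 3 mice. Parp3 alone sits far from its B6 mean in Sle2, at a mean difference of -1.35, while the other genes lie between -0.23 and 0.12.

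Of the 10 genes, 9 had a kept probe, and Parp12 did not. At limma's threshold (adjusted p under 0.05), 1 of these 9 passed and is termed called, namely Parp3, where 1.04% of all tested genes were called in either direction. The strains did not overlap for 3 of the 9 (Parp2, Parp3 and Parp10), against 24.2% of all tested genes. Nothing is read from these shares, since the contrast was used to choose the family. The differences of the 8 genes other than Parp3 ran from -0.23 to 0.12 with a median of 0.09, beside a median of 0.02 over all tested genes, whose quartiles were -0.11 and 0.15.

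Parp1, the most active chain-forming enzyme at DNA breaks, was measured by 3 kept probes that did not run the same way. The brightest read 11.33, 11.36 and 11.51 in Sle2 and 11.33, 11.41 and 11.39 in B6, so the strains overlapped and differed by 0.03 (SE 0.0958). On another Parp1 probe the values were 10.79, 10.78 and 10.74 in Sle2 and 10.91, 11.09 and 10.73 in B6, also overlapping, with a difference of -0.14 (SE 0.112). The dimmest probe had all 3 Sle2 mice (8.19, 8.15 and 8.22) below all 3 B6 mice (8.47, 8.35 and 8.51), with a difference of -0.26 (SE 0.0937). The mean of the 3 probes differed by -0.12. No direction for Parp1 can therefore be given from the brightest probe alone.

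Parp2, the partner enzyme of Parp1 in chain formation, showed small differences. Its brightest probe read 10.75, 10.68 and 10.71 in Sle2 and 10.66, 10.60 and 10.55 in B6, a difference of 0.11 (SE 0.0907) with a gap of only 0.02 between the groups. The others were at 0.01 (SE 0.0991) and -0.12 (SE 0.114), with overlapping strains on both, and the mean of all 3 Parp2 probes differed by 0.0041. Among the enzymes of DNA damage, then, the separation seen on the Parp3 probe had no counterpart of its size on any of the 6 probes for Parp1 and Parp2.

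**Figure D2:**
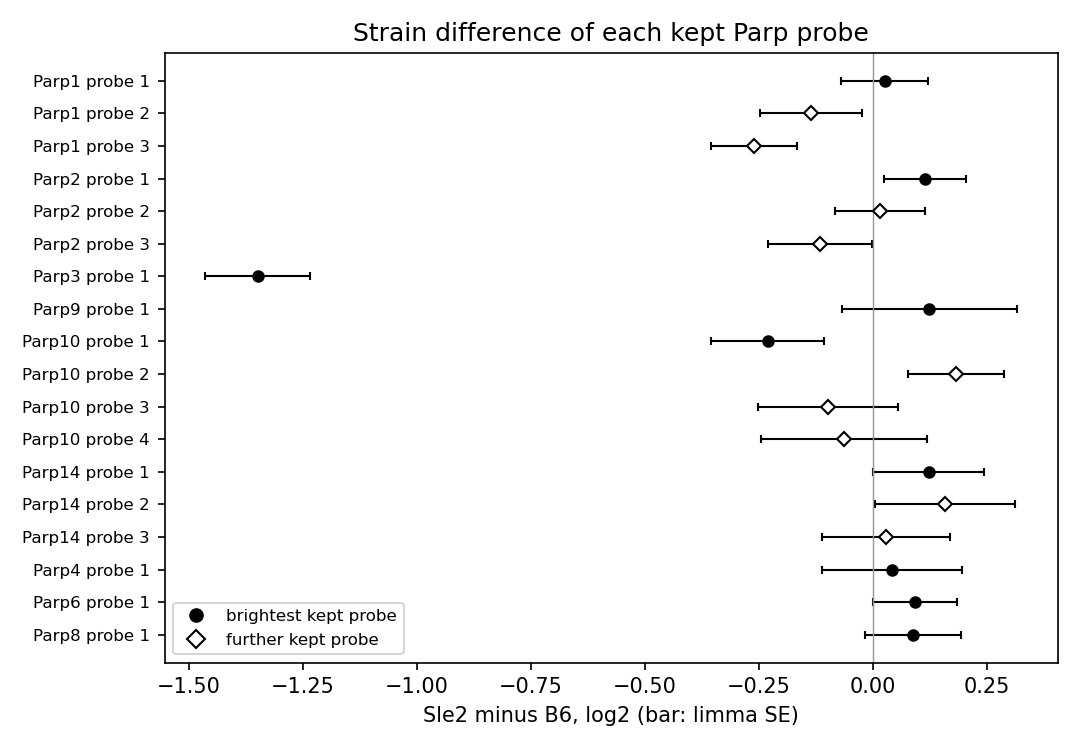
Difference between strains (Sle2 minus B6, log2, horizontal axis) of each of the 18 kept probes for PARP genes, with limma's standard error as the bar; filled circles are the brightest kept probe of a gene and open diamonds the further ones. The probes of Parp1, Parp2 and Parp10 fall on both sides of 0, those of Parp14 lie above it, and the Parp3 probe is at -1.35.

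Parp14, which in mouse B cells cooperates with the transcription factor Stat6 in responses to interleukin 4, gave a steady signal on 3 probes. The brightest read 10.84, 10.998 and 11.24 in Sle2 and 10.80, 10.99 and 10.92 in B6. Sle2 mouse 3 was the highest of all mice on each Parp14 probe, and B6 mouse 1 was the lowest on each. The strains overlapped on all 3 probes, and the differences were 0.12 (SE 0.123), 0.16 (SE 0.154) and 0.03 (SE 0.141).

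Parp9 encodes a protein with ADP-ribose-binding macrodomains that forms a complex with the ubiquitin ligase Dtx3l. Its kept probe read 6.28, 6.57 and 6.66 in Sle2 and 5.93, 6.59 and 6.62 in B6. B6 mouse 1 stood lowest and the strains overlapped, with a difference of 0.12 (SE 0.192) that turned to -0.10 without B6 mouse 1. The other Parp9 probe was detected on none of the arrays. Dtx3l itself read 9.45, 9.53 and 9.73 in Sle2 and 9.32, 9.60 and 9.39 in B6, with a difference of 0.13 (SE 0.119, adjusted p = 0.594).

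Parp10, an enzyme that attaches single ADP-ribose units, was read by 4 kept probes with conflicting differences. On the brightest, Sle2 mice read 6.64, 7.03 and 7.02 and B6 mice 7.10, 7.18 and 7.10, so Sle2 lay lower without overlap (-0.23, SE 0.124). On the next, Sle2 mice read 6.51, 6.58 and 6.66 and B6 mice 6.46, 6.25 and 6.50, so Sle2 lay higher without overlap (0.18, SE 0.105). The 2 dimmest Parp10 probes overlapped between strains, at -0.10 (SE 0.153) and -0.06 (SE 0.182), and the mean over all 4 probes differed by -0.05. No direction for Parp10 follows from these probes.

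Parp12, an interferon-induced member with zinc fingers, was near the background. Its probe was detected on 2 of the 6 arrays, Sle2 mouse 3 and B6 mouse 1, at 5.29 and 5.06, and the other arrays lay between 4.74 and 4.87. With the filter removed, its difference was 0.03 (SE 0.149).

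Set beside genes of the interferon response, Parp9, Parp10 and Parp14 differed between mice of the same strain. Each gene was centred on its own mean over the 6 arrays and then averaged. The 3 PARP genes were at -0.22, 0.06 and 0.17 in Sle2 mice 1, 2 and 3 and at -0.20, 0.11 and 0.08 in B6 mice 1, 2 and 3. The 27 tested interferon response genes were at -0.15, 0.01 and 0.38 in Sle2 and at -0.25, -0.01 and 0.02 in B6. In both sets mouse 1 of either strain was low and Sle2 mouse 3 was the highest array. This was not particular to the interferon-linked members. The brightest Parp1 probe was also lowest in mouse 1 of either strain (11.33 in both) and highest in Sle2 mouse 3 (11.51). The other Parp1 probes were not highest there. Pearson's r over the 6 arrays was 0.95 for Parp1 with Parp14. It was 0.73 for Parp9 with Parp14, 0.23 for Parp10 with Parp14 and 0.22 for Parp9 with Parp10. Sle2 mouse 3 was also 1 of the 2 mice with high Xist; the part of sex in these values was not tested.

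**Figure D3:**
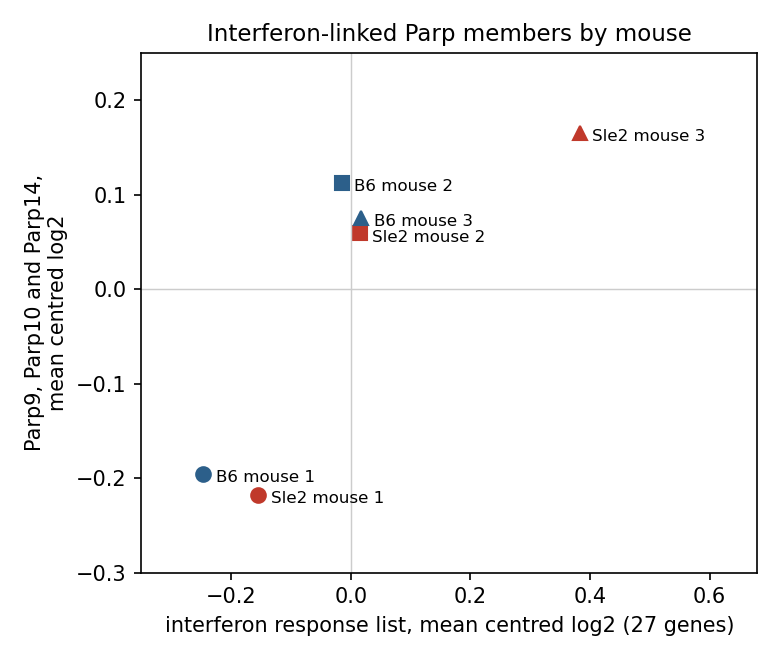
Mean centred log2 intensity of Parp9, Parp10 and Parp14 (vertical axis) against that of 27 interferon response genes (horizontal axis), 1 point per mouse, Sle2 in red and B6 in blue. Mouse 1 of each strain lies lowest, at -0.22 and -0.20 for the PARP genes, and Sle2 mouse 3 highest, at 0.17.

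None of the 27 interferon response genes was called by limma, where 1.04% of all tested genes were called. An unadjusted p under 0.05 was reached by 2 of the 27, both higher in Sle2, beside 16.9% of all tested genes. The list median was 0.14, against 0.02 over all tested genes, and 21 genes lay above 0. The Sle2 mice were not alike in this list. The centred mean was 0.38 in Sle2 mouse 3, while Sle2 mouse 1, at -0.15, lay below B6 mice 2 (-0.01) and 3 (0.02). Oasl1, an oligoadenylate synthetase-like protein, was higher in 3 of 3 Sle2 mice than in any B6 mouse, by 0.48 (adjusted p = 0.160). The strains were separated, in either direction, for 24.2% of all tested genes. Rsad2, the antiviral enzyme viperin, differed by 0.76 (adjusted p = 0.211), with overlap, and by 0.47 without Sle2 mouse 3. Eif2ak2, the kinase that senses double-stranded RNA, was at 0.28 (adjusted p = 0.349), and Usp18, which removes Isg15 from proteins, at 0.44 (adjusted p = 0.485). These 4 genes did not pass the test.

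The members outside both classes overlapped between strains. Parp4, a component of vault particles, read 7.89, 8.13 and 7.92 in Sle2 and 7.65, 8.24 and 7.92 in B6, a difference of 0.04 (SE 0.154). The other Parp4 probe was detected on no array. Parp6 read 8.72, 8.83 and 8.83 in Sle2 and 8.74, 8.70 and 8.66 in B6, a difference of 0.09 (SE 0.0916), and it lies on chromosome 9 as Parp3 does. Parp8 read 7.11, 7.07 and 7.08 in Sle2 and 6.91, 6.92 and 7.18 in B6, also a difference of 0.09 (SE 0.106). Both Parp6 and Parp8 have 1 probe each.

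Promoter windows were listed for 7 of the 10 genes, and Parp9, Parp10 and Parp14 had no entry. The 7 windows held 56.7% to 73.7% G and C, where the median of all 32851 windows was 52.7% and the quartiles 45.7% and 61.7%. They held 16 to 46 CpG pairs, beside a median of 7 and quartiles of 3 and 20. Parp3 (57.7% and 16 pairs) and Parp4 (56.7% and 17 pairs) lay within the quartiles on both measures. The interferon-stimulated response element was searched on both strands as GAAA, a pair of any bases and GAAA again, and 3.44% of all windows held it. Among the 7 it was found in 1, that of Parp4, as overlapping matches that begin at positions -150 and -144 from the start. Parp4 is outside the interferon-linked class. Parp12 was the only member of that class with a window, and it held no match, so the search says little about the class. The gamma-activated site, TTCNNNGAA, was found in 0 of the 7 and in 8.30% of all windows, and it reads the same on both strands. The Parp4 window is shown because it is the one member with the element, at chr14:56575369-56575668 on the plus strand of GRCm38.p6, with the matched letters in capitals.
Parp4: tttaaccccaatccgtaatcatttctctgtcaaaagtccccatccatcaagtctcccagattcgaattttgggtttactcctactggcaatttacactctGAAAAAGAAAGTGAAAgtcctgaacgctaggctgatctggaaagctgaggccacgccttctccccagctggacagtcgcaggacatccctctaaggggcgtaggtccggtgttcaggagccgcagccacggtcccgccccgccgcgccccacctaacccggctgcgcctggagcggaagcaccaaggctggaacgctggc

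In chromosome order, Parp3 stood among genes that differed in both directions. Of the 10 nearest tested genes on each side, all on chromosome 9, 5 of 20 were called, 2 higher and 3 lower in Sle2, and 13 of 20 did not overlap between strains. The corresponding shares of all tested genes were 1.04% and 24.2%. The median of the 20 was 0.09. Chromosome 9 is not the chromosome that the labels give for the Sle2 segment.

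Rrp9, which shares the stretch printed above with Parp3, lay on the other side of 0. It read 7.91, 7.89 and 7.74 in Sle2 and 7.67, 7.50 and 7.57 in B6, so that all 3 Sle2 mice were above all B6 mice, by 0.27 (SE 0.100). That difference did not pass the test (adjusted p = 0.230). The nearest tested gene on the far side of Parp3 is Pcbp4, a poly(C)-binding protein of RNA. It read 8.82, 8.63 and 8.79 in Sle2 and 8.26, 7.88 and 7.73 in B6 and rose by 0.79 (SE 0.144, adjusted p = 0.0478). Parp3 was thus lower in Sle2 between tested genes whose values lay higher there, of which Pcbp4 passed the test and Rrp9 did not.

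Further out, Rpl29, a protein of the large ribosomal subunit, fell by 1.75 (SE 0.0919, adjusted p = 5.99e-05), at 10.94, 10.88 and 10.92 in Sle2 against 12.73, 12.59 and 12.66 in B6. Another Rpl29 probe was lower in Sle2 by much more (-4.29, SE 0.159, adjusted p = 6.97e-06), and the mean of all kept Rpl29 probes differed by -3.02. The probes share a direction but not a size. Dusp7, a MAP kinase phosphatase, read 8.99, 8.98 and 8.79 in Sle2 and 10.40, 10.51 and 10.50 in B6, a difference of -1.55 (adjusted p = 0.000165). Mapkapk3, a kinase downstream of p38, was lower by 0.76 (adjusted p = 0.0288), with further probes at -0.85 and -0.80. Hemk1, a methyltransferase of translation release factors, was higher by 0.65 (adjusted p = 0.0363). All 4 genes separated the strains. The neighbours that were not called ranged from Abhd14a at -0.45 (SE 0.129, adjusted p = 0.147, no overlap) to Cish, an inhibitor of cytokine signalling, at 0.61 (SE 0.178, adjusted p = 0.153, with overlap). Alas1, the first enzyme of heme synthesis, was at 0.46 (SE 0.117, adjusted p = 0.112) without overlap. Dcaf1 (-0.01) and the DNA-sensing receptor Tlr9 (0.03) differed by less than their SE. Rpl29 and Dusp7 were called in all 14 alternatives. Without Sle2 mouse 1, Sle2 mouse 3, B6 mouse 2 or B6 mouse 3, Pcbp4 (adjusted p = 0.170, 0.166, 0.128 and 0.136), Mapkapk3 (adjusted p = 0.136, 0.129, 0.0852 and 0.0893) and Hemk1 (adjusted p = 0.0919, 0.129, 0.0759 and 0.117) missed the threshold. Without Sle2 mouse 2, Pcbp4 (adjusted p = 0.117) and Hemk1 (adjusted p = 0.128) missed it.

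**Figure D4:**
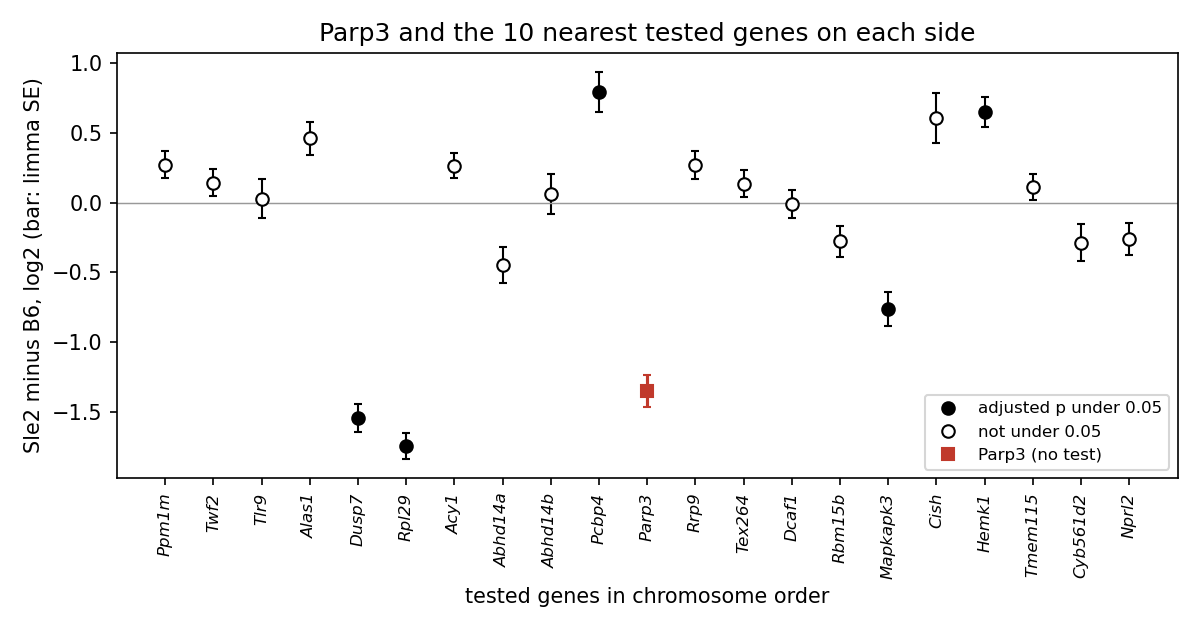
Difference between strains (Sle2 minus B6, log2, vertical axis, with limma's standard error) of Parp3 and of the 10 nearest tested genes on each side, in chromosome order along the horizontal axis and not to scale. Filled circles are the 5 called genes, from Rpl29 at -1.75 to Pcbp4 at 0.79, and the red square is Parp3 at -1.35.

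The genes whose values ran most like those of Parp3 over the 6 arrays, by Pearson's r, were Dnah7a (0.997), B4galt7 (0.993), Endou (0.992), Zbtb8a (0.990) and Tceanc2 (0.990). They lie on chromosomes 1, 13, 15, 4 and 4. Lower values in Sle2 follow from choosing genes by their likeness to Parp3 and are no result. Dnah7a, Endou and Zbtb8a were not above background on any Sle2 array, and Tceanc2 was detected on 1 of them, so their r and order rest partly on values near background and the size of their differences is not given. B4galt7, detected on all arrays, differed by -0.22. The 6 points come from 2 strains and 1 normalization, and r is given as a description.

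No called gene was found in the wider ADP-ribosylation pathway or in the repair and NAD+ lists below. These lists are short and only 1.04% of all tested genes were called, so little is read from counts of 0. An unadjusted p under 0.05 was reached by 16.9% of all tested genes. Of 6 further PARP family genes 4 were tested, with a median of -0.14 and 0 called by limma, and 1 had an unadjusted p under 0.05. That was Zc3hav1, the antiviral zinc-finger protein also counted as Parp13, at 6.81, 6.76 and 6.97 in Sle2 and 6.06, 6.72 and 6.14 in B6. It was higher in 3 of 3 Sle2 mice than in any B6 mouse, by 0.54 (adjusted p = 0.178), and passed without B6 mouse 2 (adjusted p = 0.0380). The mean of all its kept probes differed by only 0.05 (adjusted p = 0.900), so its probes disagree, and the adjusted p ran from 0.0380 to 0.900 over the 14 alternatives. Tankyrases Tnks2 (-0.20, adjusted p = 0.393) and Tnks (-0.18, adjusted p = 0.451), and Parp16 (-0.09, adjusted p = 0.754), did not pass. Tiparp and Parp11 had no kept probe.

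Among genes that assist PARPs or read and remove ADP-ribose, 12 of 17 were tested, with a median of -0.07 and 0 called by limma, and 3 had an unadjusted p under 0.05. Oard1, which strips ADP-ribose from glutamate residues, read 6.07, 6.02 and 5.95 in Sle2 and 6.24, 6.54 and 6.72 in B6. The difference was -0.49 without overlap (adjusted p = 0.126), and it passed without B6 mouse 1 (adjusted p = 0.0444), within a range of 0.0444 to 0.311 over the alternatives. Nudt16, a hydrolase, was at 0.36 (adjusted p = 0.195), Adprhl2, which cleaves ADP-ribose from serine, at -0.27 (adjusted p = 0.269), and the PAR-directed ubiquitin ligase Rnf146 at -0.24 (adjusted p = 0.334). Parg, the main chain-degrading enzyme, and Hpf1, the cofactor of Parp1 and Parp2, were at -0.16 (adjusted p = 0.422) and -0.07 (adjusted p = 0.781).

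The repair lists gave the same count of 0 called by limma. In single-strand break repair 14 of 17 genes were tested (median -0.02), with 1 at an unadjusted p under 0.05. Apex1, the abasic site nuclease, was at -0.31 (adjusted p = 0.208), and Xrcc1, the scaffold recruited by PARP chains, at -0.23 (adjusted p = 0.303). Lig1, the replicative DNA ligase, was at 0.24 (adjusted p = 0.503). Aplf, which binds ADP-ribose and works with Parp3 in end joining in human cells, was at 0.24 (adjusted p = 0.302), with all 3 Sle2 mice above all B6 mice. Apex1 and Xrcc1 separated the strains the other way. The strains did not overlap for 3 of the 14 genes, against 24.2% of all tested genes.

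For end joining and class switching, 18 of 28 genes were tested (median -0.01) and 2 had an unadjusted p under 0.05. Lig4, the ligase of end joining, read 4.73, 4.94 and 4.94 in Sle2 and 5.24, 5.21 and 5.42 in B6, a difference of -0.42 without overlap (adjusted p = 0.116), close to background and detected on 2 of 3 Sle2 arrays. Polm, a polymerase of end joining, was at -0.29 (adjusted p = 0.288), Paxx at -0.26 (adjusted p = 0.295) and Trp53bp1, which protects broken ends from resection, at 0.22 (adjusted p = 0.308).

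In homologous recombination 7 of 15 genes were tested (median 0.04), with 1 at an unadjusted p under 0.05. That was the helicase Blm, at 0.38 (adjusted p = 0.227), followed by Rad52 (0.16, adjusted p = 0.439), Brca2 (-0.15, adjusted p = 0.531) and Palb2 (-0.12, adjusted p = 0.571). For the supply and use of NAD+, the substrate of PARPs, 9 of 15 genes were tested (median 0.06), with 0 at an unadjusted p under 0.05. Nadsyn1 was at -0.24 (adjusted p = 0.338), Naprt at 0.26 (adjusted p = 0.522), Nadk at 0.12 (adjusted p = 0.572) and Sirt1 at 0.09 (adjusted p = 0.728). In all, 16.9% of the tested genes had an unadjusted p under 0.05.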

How the data were processed

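Biotin-labelled RNA was hybridised to Illumina arrays, per the labels. The authors deposited bead-summary intensities, with GenomeStudio named in the submitters' processing notes, and detection p-values, per the file headers. The intensities show neither background subtraction nor normalization. The authors' series matrix holds intensities that, from the values, were quantile-normalized. Of 45281 probes, 34885 carried a single symbol, 18 several and 10378 none. RefSeq (GRCm38.p6) held the gene, matched by identifier, for 34807 of the single-symbol probes. The files name no genome build.

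Background was removed by normexp on detection p-values (offset 16) before quantile normalization and log2 (neqc of limma 3.58.1, R 4.3.3). The 17861 kept probes were fitted with lmFit and eBayes, with two-sided p-values adjusted by Benjamini-Hochberg over them; the fit was tested on simulated data. Each gene took its brightest kept probe. The rule for named genes took the members, the 10 nearest tested genes on each side of Parp3, the 5 most correlated with it, and the 4 smallest p in each list; Dtx3l, Parg and Hpf1 were added after their values were seen. Members and lists were chosen with earlier results of these data known. Alternatives changed the background correction, scaling, filter, prior or probe rule, used the series matrix, added the mouse number as a block, or left out a mouse. The number of arrays limits the precision.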

Additional observations from a re-analysis of the deposited data

How the results depend on the processing

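The Parp3 difference, which chose the family and is a description, ran from -1.42 to -1.07 over 14 alternatives. Uncorrected background gave -1.07 and the series matrix -1.10. Scaling by medians put the all-gene median at 0.14 in place of 0.02, with Parp3 at -1.24, or -1.38 relative to that median. Small differences changed sign for Parp1 (the mean of all kept probes, and without Sle2 mouse 3), Parp4 (without B6 mouse 1 or Sle2 mouse 2) and Parp9 (without B6 mouse 1). The count of called genes over all tested genes was 97 (61 higher and 36 lower in Sle2), and became 245 with median scaling (219 higher and 26 lower), 200 without background correction, 56 with no filter, 185 with the series matrix values, 285 with a trended robust prior and between 28 and 143 with single mice left out. The called neighbours of Parp3 numbered 5, and 2 with no filter (Hemk1, Mapkapk3 and Pcbp4 missed the threshold), between 2 and 5 with single mice left out, and 6, with Alas1 added, under median scaling, no background correction, the series matrix values and the trended robust prior. Leaving out single mice gave between 0 and 1 called genes among the further PARP family genes and, likewise, between 0 and 1 among the genes that assist PARPs or remove ADP-ribose. The other lists kept 0 calls, except that the interferon list had 1, Rsad2, with the mouse number as a block.

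The mouse number comes from the sample titles, and whether it marks a true pairing is not settled by these values. Deviations of same-numbered mice correlated at 0.20, 0.13 and 0.04, and those of differently numbered mice at -0.21 to 0.07. Sle2 mice 1 and 2 correlated best with the B6 mouse of the same number, while Sle2 mouse 3 correlated best with B6 mouse 2 (0.07). With this replicate block 72 genes were called, 60 of them among the 97, and Parp3 was at -1.35. Of the called neighbours 4 passed with it, and Hemk1 did not (adjusted p = 0.0515). Dim probes limit Parp12 and the fainter Parp9, Parp4 and Parp10 probes.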
